A study of Mus musculus with 9 samples.

Results

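Immunoglobulin variable (V) genes were taken as every row of the authors' deposited table of DKO against Wt RNA-seq whose gene biotype is IG_V_gene. The rule gave 96 of 17511 genes, with 43 heavy chain genes (symbols opening with Ighv), 51 kappa light chain genes (Igkv) and 2 lambda light chain genes (Iglv). The libraries came from mouse colon epithelial cells that were loosened from fresh colon with 5 mM EDTA. The groups used here were 2 RNA-seq libraries labelled DKO, of strain Cdx1-/-Cdx2f/f vill (+), against 2 labelled Wt, of strain Cdx1-/-Cdx2f/f vill (-), and another 2 and 2 libraries of the same strains for ATAC-seq, in which a transposase cuts open chromatin. Mice of all 8 libraries received tamoxifen for 6 days, and both groups carry Cdx1-/- and Cdx2f/f, so by these labels Wt names the group without the vill tag. Cdx1 and Cdx2 are caudal homeobox transcription factors of the intestinal epithelium. One Cdx2 ChIP-seq library, of the vill (-) strain and tagged untreated, was also deposited. Neither the promoter behind the vill tag nor age or sex is in the labels. Since they do not say whether replicates are separate animals, each p-value speaks only for the spread among the samples at hand, part of which may be technical.

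The RNA libraries held 20069555 to 21197446 estimated reads in DKO and 16403301 to 25494309 in Wt. In the authors' deposited table Cdx2 was not called lower in DKO (log2 fold change -0.27, SE 0.21, adjusted p = 0.301) and Cdx1 was lower (-1.06, SE 0.23, adjusted p = 2.08e-05). A gene total does not resolve a deleted exon, so the groups are called by their labels. The labelled tissue showed its defining markers, with means of 159960 normalized counts for the keratin Krt8 and 39413 for the adhesion molecule Epcam by the authors' deposited table.

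An antibody chain is encoded by a V gene joined to shorter segments, a rearrangement made in each developing B cell by the RAG recombinase, and by a constant region gene added to the transcript by splicing. Heavy chain V genes join D and J segments, and kappa and lambda V genes join J segments. A germline V gene is hardly transcribed, whereas its rearranged copy is transcribed strongly in B cells and most strongly in plasma cells, the antibody-secreting cells of the B lineage. In the colon most plasma cells lie in the lamina propria beneath the epithelium and secrete IgA, which the epithelial receptor Pigr carries into the lumen. Epithelial cells do not rearrange V genes. In such bulk libraries fewer cells of a type and less RNA per cell cannot be told apart.

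All 96 genes were found by symbol in the RefSeq annotation of GRCm38.p6. It lists 225 V segments and 123 V pseudogenes, of which the heavy ones lie on chromosome 12 (113572929 to 116009954), the kappa ones on chromosome 6 (67555636 to 70704177) and the lambda ones on chromosome 16 (19085017 to 19260844). Measured by symbol, 42 of 120 heavy, 51 of 102 kappa and 2 of 3 lambda V segments had a row in the authors' deposited table, and the remaining row, Ighv7-3, is a pseudogene in RefSeq. The lowest mean in that table was 2.43 normalized counts, and the lowest among the 96 genes was 3.96. V segments without a row are not analysed here. A V gene with reads in only 1 group could enter through that group alone, so the counts and medians below describe the genes that were listed and not all V genes. The spans of the 96 genes in RefSeq ran from 293 to 764 bp. Normalized counts are not divided by length, so the means below order genes by reads and not by transcript level.

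Most listed V genes were lower in DKO. Of the 96 genes the authors' deposited table called 55 genes lower and 0 higher at an adjusted p under 0.05, where it called 18.3% of all its genes lower and 18.5% higher. By unadjusted p under 0.05 the authors' deposited table held 65 lower and 0 higher V genes. A negative log2 fold change stood beside 95 of the 96 genes, against 50.9% of all genes by the authors' deposited table. The exception was the kappa gene Igkv4-91, at 0.03 (SE 0.79) and a mean of 8.51 normalized counts by the authors' deposited table, named after its values were seen. The 96 genes had a median log2 fold change of -1.86, against -0.02 over all genes of the authors' deposited table, and a mean weighted by read number of -3.01. The summed means by the authors' deposited table were 799 normalized counts for heavy, 1567 for kappa and 95.8 for lambda.

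**Figure D1:**
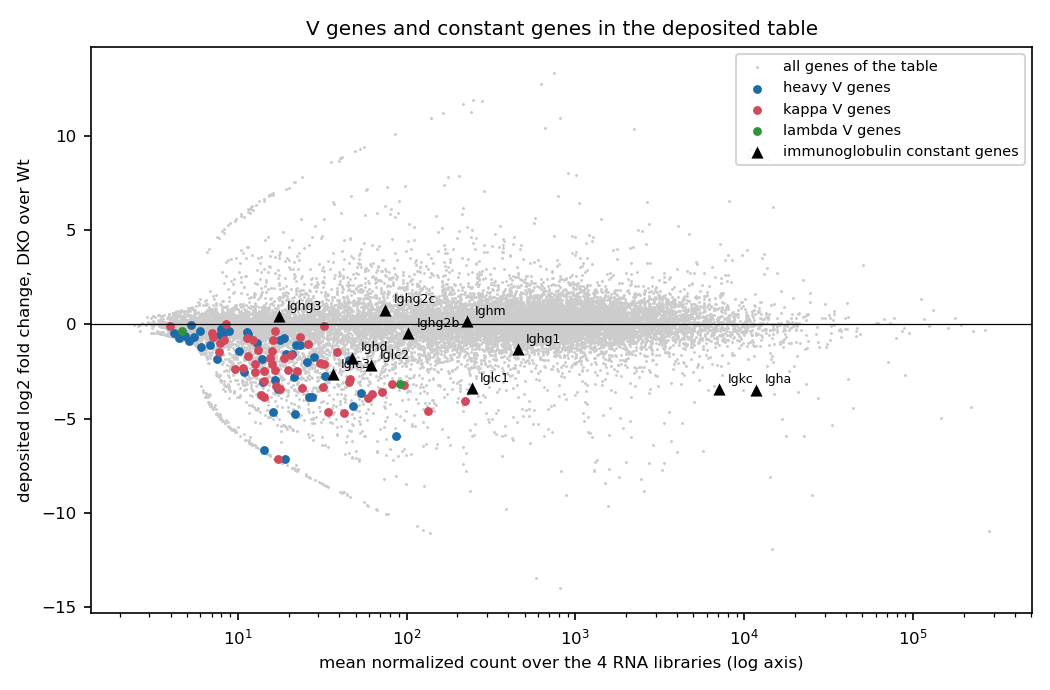
Mean normalized count over the 4 RNA libraries (log axis) against the deposited log2 fold change, DKO over Wt, with every gene of the table in grey, V genes as coloured points and constant genes as black triangles. The V genes lie below 0 with 1 exception at 0.03, and Igha and Igkc lie far to the right at -3.46 and -3.42.

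Heavy chain V genes encode the antigen-contacting end of the heavy chain. The authors' deposited table called 20 of 43 lower and 0 higher, beside 18.3% lower and 18.5% higher of all genes. The heavy genes had a median log2 fold change of -1.55 and a range from -7.16 to -0.04 by the authors' deposited table. The highest mean belonged to Ighv10-1 (chromosome 12, 114479007 to 114479451, GRCm38.p6), at a mean of 86.4 normalized counts and a log2 change of -5.93 (SE 0.79, adjusted p = 4.63e-13) by the authors' deposited table. Ighv1-64 (chromosome 12, 115507587 to 115507977) followed at a mean of 53.8 and -3.63 (SE 0.73, adjusted p = 6.37e-07) by the authors' deposited table. All of the 8 heavy genes of highest mean were called lower. In the authors' deposited table the other 6 were Ighv1-59 (-4.33, SE 1.36), Ighv9-3 (-1.88, SE 0.90), Ighv1-9 (-2.76, SE 1.40), Ighv7-3 (-1.72, SE 1.24), Ighv1-7 (-3.85, SE 1.20) and Ighv1-72 (-3.85, SE 1.12). Ighv7-3 passed closely, at adjusted p = 0.0485 by the authors' deposited table.

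The most negative called heavy values at a mean of at least 10 normalized counts belonged to Ighv1-58 (-7.16, SE 3.08), Ighv10-3 (-6.68, SE 2.99), Ighv10-1, Ighv1-26 (-4.75, SE 1.40) and Ighv2-3 (-4.65, SE 2.06) by the authors' deposited table. The authors' deposited table put the means of Ighv1-58 and Ighv10-3 at 18.9 and 14.2, and their SE were the widest of the heavy genes named here. Both listed genes of heavy family 10 were called lower, with a median of -6.30 by the authors' deposited table. Family 1, the J558 family and the largest in the mouse, gave 25 of the 43 rows, of which the authors' deposited table called 11 lower, with a median of -1.20. Family 5 was called lower in 2 of 6 and family 8 in 0 of 2, and the medians of these families were -1.20 and -0.21 by the authors' deposited table. The 2 family 8 genes, Ighv8-12 and Ighv8-5, had means of 11.4 and 5.30 normalized counts by the authors' deposited table. Of all genes, 18.3% were called lower. Heavy families were not matched in mean count, and differences between them were not tested. The heavy genes of highest mean that missed the threshold were Ighv1-22 (-1.08, adjusted p = 0.144), Ighv1-81 (-1.08, adjusted p = 0.135) and Ighv6-3 (-1.55, adjusted p = 0.0524) by the authors' deposited table. Their means there were 21.1 to 23.4 normalized counts.

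Kappa V genes supply the light chain of most mouse antibodies. The authors' deposited table called 34 of 51 lower and 0 higher, beside 18.3% lower and 18.5% higher of all genes. The kappa genes had a median log2 fold change of -2.33 and a range from -7.17 to 0.03 by the authors' deposited table. Igkv1-110 (chromosome 6, 68270527 to 68271265, GRCm38.p6) was the V gene with most reads, at a mean of 220.4 normalized counts and a log2 change of -4.06 (SE 0.39, adjusted p = 4.07e-24) by the authors' deposited table. That change in the authors' deposited table is a level 16.7-fold higher in Wt. Igkv4-59 (chromosome 6, 69438218 to 69438741) had a mean of 134.3 and a log2 change of -4.62 (SE 0.71, adjusted p = 1.03e-10) by the authors' deposited table. The other 6 of the 8 kappa genes of highest mean were also called lower by the authors' deposited table, namely Igkv6-15 (-3.23, SE 0.75), Igkv1-117 (-3.19, SE 0.71), Igkv5-39 (-3.58, SE 0.86), Igkv1-135 (-3.72, SE 1.08), Igkv10-94 (-3.91, SE 1.09) and Igkv4-68 (-2.92, SE 1.38).

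Among called kappa genes at a mean of at least 10 normalized counts, the most negative beside Igkv4-59 and Igkv1-110 were Igkv4-70 (-7.17, SE 2.95, mean 17.3), Igkv4-53 (-4.70, SE 1.02, mean 42.7) and Igkv15-103 (-4.64, SE 1.10, mean 34.4) by the authors' deposited table. By family, the authors' deposited table called all 6 listed genes of family 8 lower (median -2.41) and all 3 of family 1 (median -3.72). It called 7 of 14 in family 4 lower (median -1.46) and 3 of 7 in family 6 (median -1.62), beside 18.3% of all genes. Kappa families were not matched in mean count, and differences between them were not tested. Family 4 held both the most negative kappa gene, Igkv4-70, and the 3 kappa values nearest to 0 by the authors' deposited table, Igkv4-91, Igkv4-80 and Igkv4-58 (0.03, -0.11 and -0.11). Igkv4-80 had the highest mean of the V genes not called, at 32.4 normalized counts and a log2 change of -0.11 (SE 0.95, adjusted p = 0.543) by the authors' deposited table. After it came Igkv3-2 (-1.06, SE 1.07, adjusted p = 0.153) and Igkv4-72 (-0.67, SE 0.97, adjusted p = 0.310) by the authors' deposited table. Family members are close in sequence, and the authors' counting could split reads among them, so single V gene values are uncertain. The library files name transcripts by ID and no table at hand links these to genes, so a V gene has no value per library here, and whether the groups overlapped is not given.

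**Figure D2:**
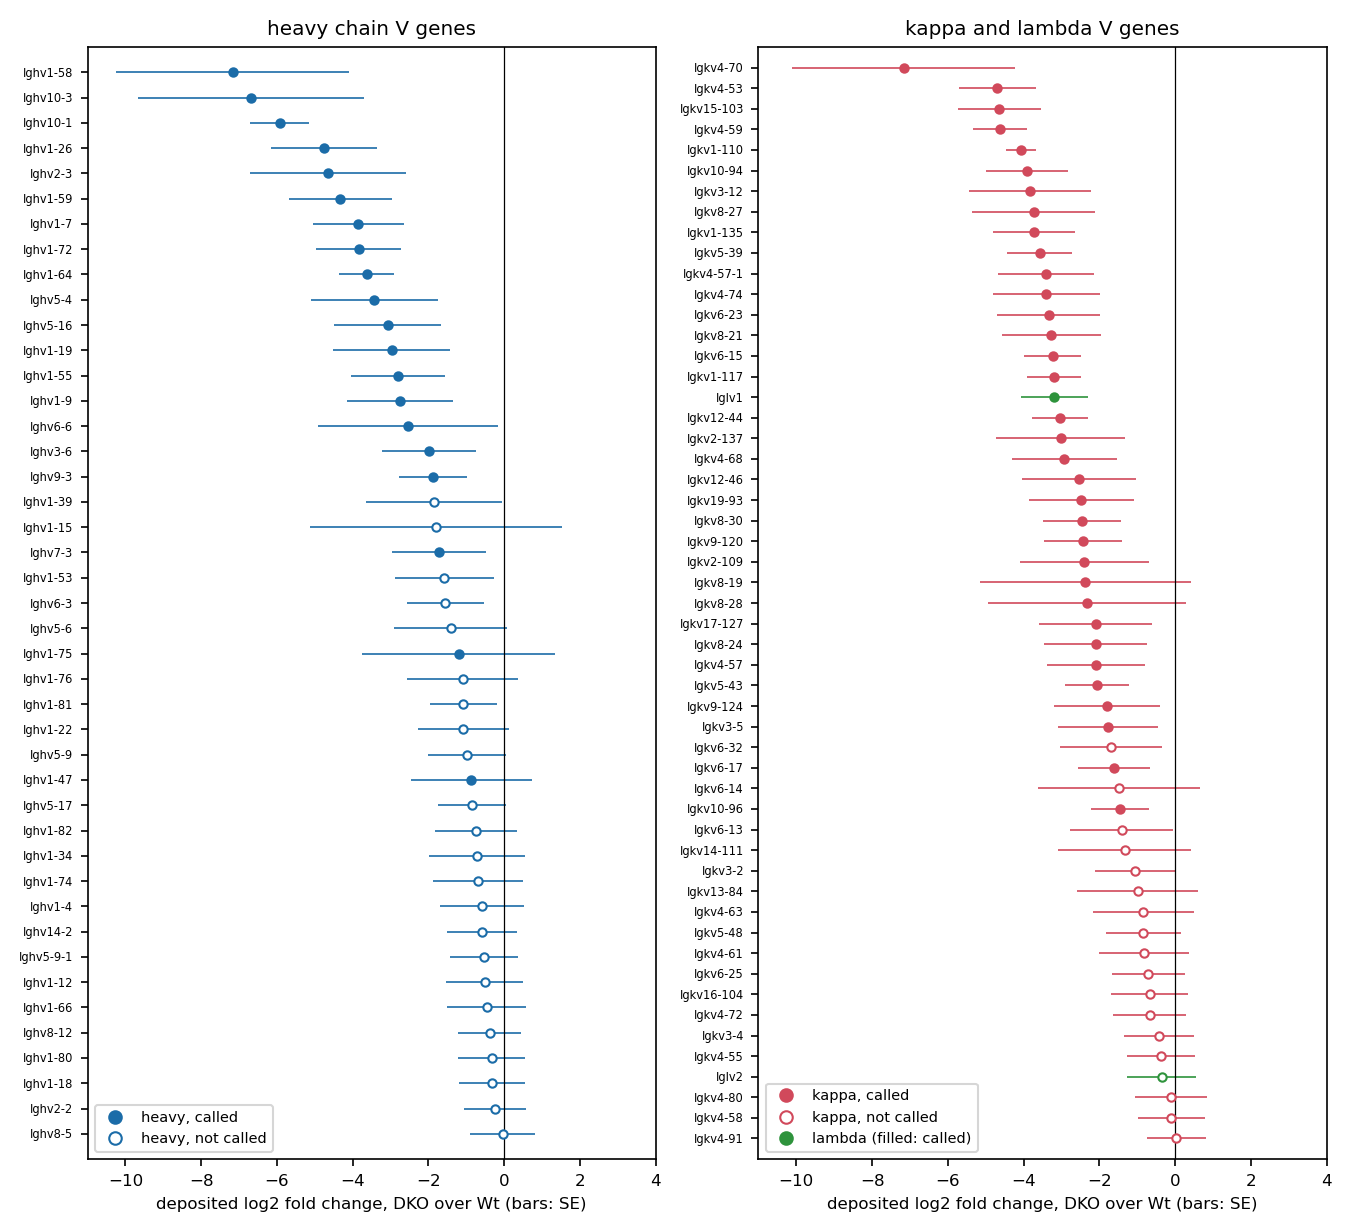
Deposited log2 fold change, DKO over Wt, of each of the 96 V genes, with bars of 1 SE, heavy genes on the left and kappa and lambda genes on the right, each sorted by value. Filled points were called (adjusted p under 0.05), 20 of 43 heavy, 34 of 51 kappa and 1 of 2 lambda genes, all of them below 0.

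Lambda V genes are few in the mouse, and 2 were listed. Iglv1 (chromosome 16, 19085017 to 19085460, GRCm38.p6) was lower, at a mean of 91.1 normalized counts and a log2 change of -3.19 (SE 0.89, adjusted p = 0.000161) by the authors' deposited table. Iglv2 (chromosome 16, 19260403 to 19260844) had a mean of 4.70 and a log2 change of -0.36 (SE 0.91, adjusted p = 0.534) by the authors' deposited table. Among lambda constant genes the authors' deposited table called Iglc1, Iglc2 and Iglc3 lower, with values given below.

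V genes with more reads were called more often. V genes called by the authors' deposited table had a median mean of 21.9 normalized counts, against 10.2 for those not called. Below a mean of 10 normalized counts the authors' deposited table called 3 of 23 V genes lower, where it called 7.86% of all genes in that range lower. From 10 to 20 it called 22 of 37 V genes lower, with 17.1% of all genes of the authors' deposited table. From 20 to 50 it called 20 of 26, with 23.4% of all genes of the authors' deposited table, and at 50 or more 10 of 10, with 19.5%. Means pool the libraries of both groups, so a V gene could reach a high range through its Wt reads alone. Counts and medians by range describe the listed genes and add no separate support for a lower level in DKO. The 10 V genes of highest mean lay between -5.93 and -3.19 by the authors' deposited table. By chain, the medians from 10 to 20 normalized counts were -1.84 over 15 heavy and -2.21 over 22 kappa genes by the authors' deposited table. From 20 to 50 they were -2.37 over 12 heavy and -2.27 over 14 kappa genes by the authors' deposited table. At 50 or more they were -4.78 over 2 heavy and -3.72 over 7 kappa genes by the authors' deposited table, so neither chain was lower in every range of means. The difference between the chains was not tested.

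Lower values were spread along both gene clusters. Divided into 3 stretches of listed genes by position, the heavy cluster had 8 of 15, 6 of 14 and 6 of 14 genes called lower by the authors' deposited table, from the end nearest to the constant genes outward. Their medians were -1.72, -1.44 and -1.15 by the authors' deposited table. The kappa cluster had 12, 11 and 11 of 17 genes each called lower by the authors' deposited table, from the end farthest from Igkc inward, with medians of -2.40, -2.54 and -2.10. Of all genes, 18.3% were called lower and 18.5% higher by the authors' deposited table.

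**Figure D3:**
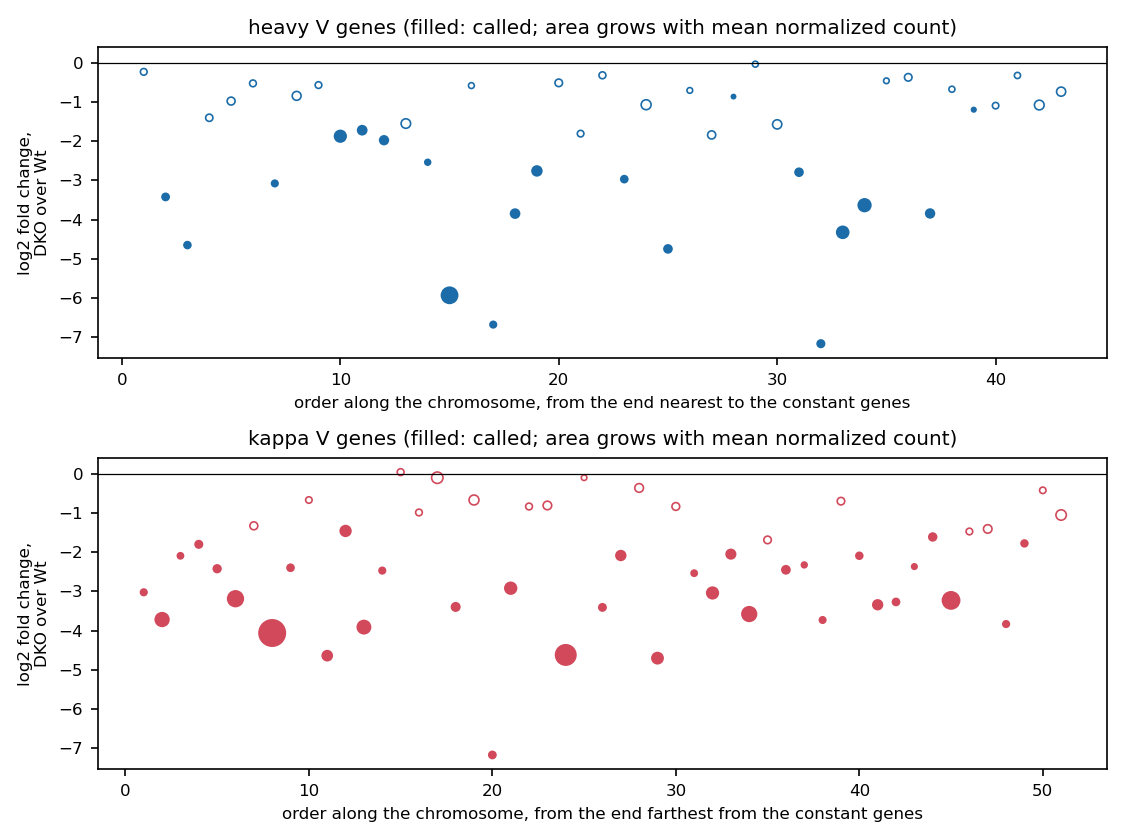
Deposited log2 fold change, DKO over Wt, of the 43 heavy (top) and 51 kappa (bottom) V genes in their order along chromosomes 12 and 6, with point area growing with mean normalized count and filled points called. Called genes stand in every stretch of both clusters, 6 to 8 per stretch in heavy and 11 to 12 in kappa.

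Heavy chain constant region genes set the class of the antibody, and constant region genes of all chains receive the rearranged V exon by splicing. Of 11 measured in a list of 13, the authors' deposited table called 7 genes lower and 0 higher, where it called 18.3% of all its genes lower and 18.5% higher. Igha, the IgA heavy chain, was at -3.46 (SE 0.34, adjusted p = 4.88e-23, mean 11750) and Igkc, the kappa constant region, at -3.42 (SE 0.34, adjusted p = 2.48e-22, mean 7116) by the authors' deposited table. Lambda constant genes were lower as well, Iglc1 at -3.37 (SE 0.80), Iglc3 at -2.64 (SE 0.76) and Iglc2 at -2.17 (SE 0.62) by the authors' deposited table. Ighd, the IgD gene of naive B cells, was at -1.77 (SE 0.75, adjusted p = 0.0113) by the authors' deposited table. Ighg1 had a wide error, at -1.31 (SE 2.45, adjusted p = 0.0434) by the authors' deposited table. The IgM gene Ighm was not called, at 0.16 (SE 0.40, adjusted p = 0.780) and a mean of 227 normalized counts by the authors' deposited table. Ighg2b (-0.46, SE 0.44), Ighg2c (0.79, SE 0.73) and Ighg3 (0.43, SE 0.80) were not called either by the authors' deposited table. Whether the change of Igha differed from that of Ighm was not tested. The IgG genes and Iglc2 and Iglc3 are close copies among which reads could be split.

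Genes of plasma cells and B cells were taken from lists chosen with earlier results of these data known. Of 15 plasma cell genes the authors' deposited table called 4 genes lower and 2 higher, with a median of -0.18, where it called 18.3% of all its genes lower and 18.5% higher, so the counts of this list lay near those of all genes. Lower were Jchain, which links IgA into dimers (-3.61, SE 0.27, adjusted p = 1.91e-38), Mzb1, a chaperone of antibody assembly (-2.10, SE 0.74), Derl3 of endoplasmic reticulum degradation (-2.22, SE 0.94) and the prolyl isomerase Fkbp11 (adjusted p = 5.73e-07) by the authors' deposited table. Called higher were the secretory regulator Xbp1 (1.07, SE 0.18) and the repressor Prdm1 (0.98, SE 0.40) by the authors' deposited table. Intestinal epithelium also expresses both. Epithelial reads could enter the values of other genes of this list too, called or not, and this was not tested. Txndc5 and Sdc1, with Xbp1 the highest of the list in mean count, stood at -0.08 (SE 0.18) and -0.18 (SE 0.18) by the authors' deposited table and were not called. Irf4, Pou2af1 and Tnfrsf13b of the same list were not called, at -0.27 (SE 0.62), 0.05 (SE 0.51) and -0.25 (SE 0.71) by the authors' deposited table.

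Of 14 B cell genes the authors' deposited table called 5 genes lower and 0 higher, with a median of -0.87, beside 18.3% lower and 18.5% higher of all genes. They were Spib (-1.22, SE 0.36), the antigen receptor subunit Cd79a (-1.25, SE 0.57), the surface protein CD20, Ms4a1 (-2.46, SE 0.87), Bank1 (-2.02, SE 1.19) and the low-affinity IgE receptor Fcer2a (-6.29, SE 2.98, mean 11.7) by the authors' deposited table. Spib had the highest mean of this list, 204 normalized counts by the authors' deposited table, and which cells its reads came from was not tested. Cd37 missed the threshold at -1.04 (SE 0.52, adjusted p = 0.0531) by the authors' deposited table. Pigr, at a mean of 87908 normalized counts, was at -0.20 (SE 0.18, adjusted p = 0.399) by the authors' deposited table. Genes of plasma cell homing and survival, signals and receptors alike, went both ways, with 6 of 14 called lower and 3 higher by the authors' deposited table. The shares of all its genes were 18.3% lower and 18.5% higher. The retinal dehydrogenase Aldh1a1 (-1.85, SE 0.24), the survival factors Tnfsf13, or APRIL (-0.92, SE 0.29), and Tnfsf13b, or BAFF (-2.46, SE 0.71), and the stromal chemokine Cxcl12 (-5.93, SE 0.79) were lower by the authors' deposited table. So were 2 genes with few reads, the venular addressin Madcam1 (-6.37, SE 2.97, mean 12.2) and the chemokine receptor Ccr10 (-2.13, SE 1.77, mean 9.29), by the authors' deposited table. Epithelial Ccl28, a ligand of Ccr10 (0.82, SE 0.27), the integrin subunit Itga4 (1.97, SE 0.56) and the chemokine receptor Cxcr4 (1.71, SE 0.60) were higher by the authors' deposited table.

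Among markers of other cell types, those of stroma and of neutrophils moved with the labels, where 18.3% of all genes were called lower and 18.5% higher. Of 18 markers of stroma, muscle and endothelium the authors' deposited table called 17 genes lower and 1 higher, with a median of -5.13, led in mean count by Tagln (-8.18, SE 1.33), Acta2 (-8.11, SE 0.35) and Des (-7.67, SE 1.01). The 1 called higher was Lyve1 (3.41, SE 0.38, mean 603) by the authors' deposited table. All 7 neutrophil markers were higher, with a median of 4.57 by the authors' deposited table, with Ly6g (1.89, SE 0.42), S100a8 (10.99, SE 2.13) and S100a9 (12.79, SE 3.86) highest in mean. Of 12 T cell markers the authors' deposited table called 0 genes lower and 2 higher (median 0.28), and by mean count Lck (0.30, SE 0.44), Trbc2 (0.74, SE 0.49) and Cd3e (0.11, SE 0.46) came first and were not called. Myeloid markers were split, 3 lower and 2 higher of 11 by the authors' deposited table (median -0.20), with Cd14 at 2.16 (SE 0.20), Lyz2 at -2.13 (SE 0.27) and C1qa at -2.40 (SE 0.33). The 8 epithelial markers stood at 3 lower and 2 higher by the authors' deposited table (median -0.21), with Krt8 at -0.20 (SE 0.18), Krt19 at 0.27 (SE 0.17) and Epcam at -0.22 (SE 0.19). Summed levels per group cannot be given from the authors' means, and the part of these cells in the V gene result was not tested.

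**Figure D4:**
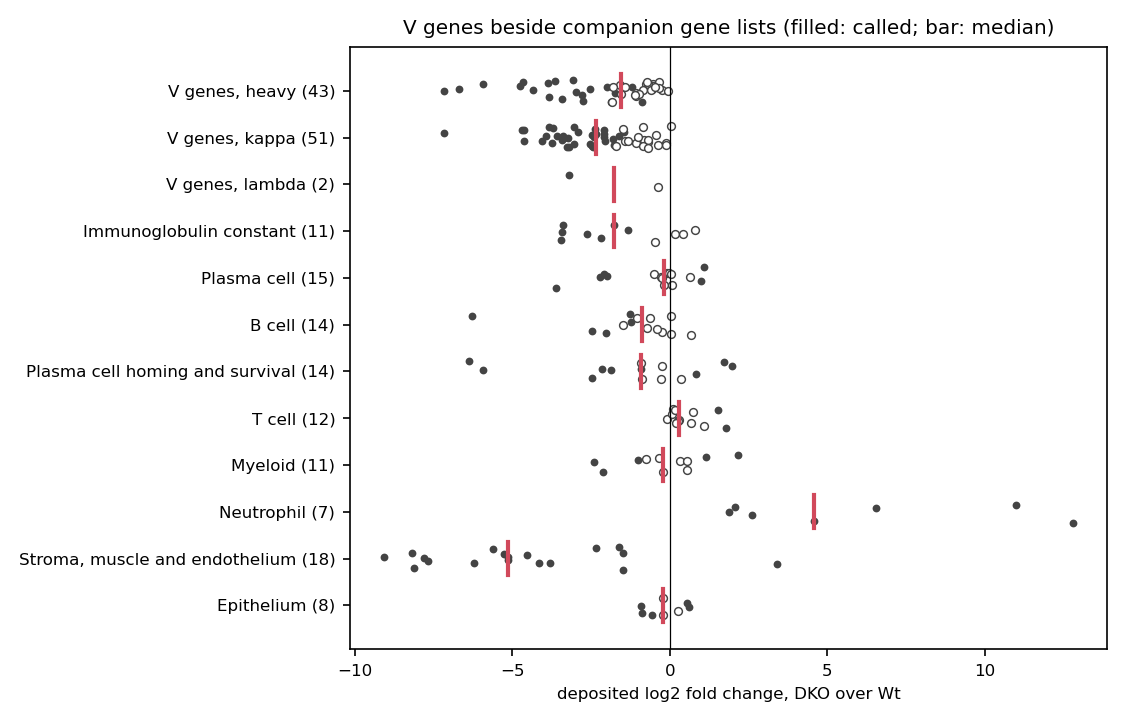
Deposited log2 fold change, DKO over Wt, of the V genes by chain and of 9 companion lists, 1 point per gene with the number of genes in brackets, filled where called, and the median as a red bar. Heavy and kappa V genes have medians of -1.55 and -2.33, the T cell list 0.28, neutrophil markers 4.57 and stromal markers -5.13.

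Open chromatin was then counted over the V genes, as gene spans widened by 250 bp on both sides. In DKO replicate 1 a peak lay at 2 of 43 heavy V genes, Ighv5-6 and Ighv1-39, and in DKO replicate 2 and both Wt libraries at 0. At kappa and lambda V genes no ATAC library had a peak. Over all genes with a span the share with a peak was 49.0% and 52.1% in the DKO libraries and 80.9% and 82.6% in the Wt libraries. These spans are whole genes and were not matched in length to the short V genes, so the shares are not compared. The Cdx2 ChIP list, of 5179 peaks, held 0 peaks between the first and last V gene of any of the 3 clusters.

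Peaks anywhere between the first and last V gene of a cluster were counted next, a count added after the data had been seen. The libraries labelled DKO held 42 and 13 such peaks of 40101 and 23961, and those labelled Wt held 10 and 1 of 48163 and 53943. These were 0.105% and 0.0543% of the peaks in DKO and 0.0208% and 0.00185% in Wt, so both DKO libraries lay above both Wt libraries, opposite in direction to the RNA. With 2 libraries a group an exact two-sided permutation test cannot go below p = 0.333, so this difference was not tested. Peaks of the DKO libraries in these regions were weak, with a largest -log10 q of 4.75 and 4.00, against 11.8 and 10.5 in the Wt libraries, all the authors' values. At a -log10 q of at least 5 the DKO libraries held 0 and 0 and the Wt libraries 1 and 1. Of the 42 and 13 DKO peaks, 6 and 6 overlapped a peak of another ATAC library, as did 2 of 10 and 1 of 1 Wt peaks. Library strength moved with the labels: 15.7% and 17.4% of all DKO peaks reached that -log10 q, against 48.5% and 51.6% in Wt. Of all peaks, 3.15% and 3.41% in DKO lay on chromosome X, against 1.84% and 1.74% in Wt. The DKO libraries had 0 and 0 peaks on chromosome Y, the Wt libraries 4 and 6. The part of these differences between libraries in the counts was not tested.

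**Figure D5:**
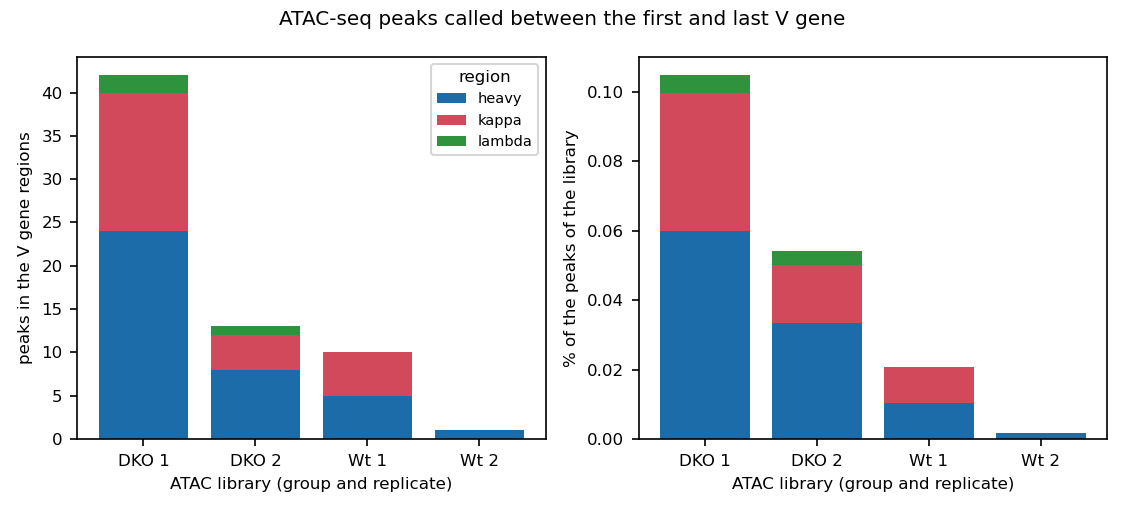
ATAC-seq peaks between the first and last V gene of the heavy, kappa and lambda clusters, as a number (left) and as a percentage of all peaks of the library (right), for each of the 4 libraries. The DKO libraries hold 42 and 13 such peaks and the Wt libraries 10 and 1.

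At constant genes the added count gave a peak at 3 and 2 of 13 genes in the DKO libraries (Ighm and Ighg1 in both, Ighg3 in replicate 1) and at 0 and 0 in the Wt libraries. With peaks of -log10 q of at least 5 alone, the count in the DKO libraries was 0 and 0. Plasma cell genes had a peak at 6 and 6 of 16 in DKO and 12 and 12 in Wt, and B cell genes at 5 and 3 of 15 in DKO and 5 and 6 in Wt. The share over all genes with a span, 49.0% and 52.1% in DKO against 80.9% and 82.6% in Wt, was also lower in DKO, and nothing particular to these lists is read from their counts.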

How the data were processed

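Values of genes are the authors': the deposited table holds a mean normalized count, a signal scaled between libraries by the authors, the authors' log2 fold change of DKO over Wt with its SE, and p-values computed by the authors. Benjamini-Hochberg adjustment of its p over 17511 genes returned its adjusted p. Fold over SE returned the deposited p for 1751 genes (within 0.01 in log10), so the folds appear shrunken, which may understate changes of genes with few reads. The submitters' processing notes name Salmon 1.3.0, DESeq2, MACS2, BWA, Bowtie2 and fastp, beside GRCm38 and mm10, and give no roles. The library files hold estimated counts per transcript by Salmon, per the file headers, and TPM scaled by the authors' run; only the totals of the estimated counts were used. Peak files hold, per the file format and deposited by the authors for each library, a score, a fold enrichment ratio, and -log10 p and -log10 q.

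Members were the rows of biotype IG_V_gene. Members, lists and the naming rule were chosen with earlier results of these data known. The rule took per chain the 8 genes of highest mean, the 5 most negative called at a mean of at least 10, the 3 highest in mean not called, the 5 most positive called (there were 0), both lambda genes, all constant genes and the 3 highest in mean of each list; others were named after their values were seen. Called means an adjusted p under 0.05 in the authors' test of 2 against 2 libraries. Spans are RefSeq's on GRCm38.p6, the assembly of mm10, and an overlap was at least 1 bp. Counts, adjustment and overlaps used Python 3.11.15, numpy 2.4.6, pandas 2.3.3 and scipy 1.17.1 and were tested on simulated data. No V gene sequence is shown, and values of some list genes are not reported here.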

Additional observations from a re-analysis of the deposited data

How the results depend on the processing

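With the table limited to means of 50 normalized counts or more, and p readjusted, 10 V genes remained in the table and 10 were called lower, 2 heavy, 7 kappa and 1 lambda, with medians of -3.68 over all, -4.78 for heavy, -3.72 for kappa and -3.19 for lambda; fewer genes enter by construction. At a mean of at least 10 the lambda median was also -3.19, as 1 gene was left, and the heavy median was -2.54. Because means pool both groups, a V gene could pass either limit through its Wt reads alone. At an adjusted p under 0.01 the calls were 34 in all, 12 heavy and 21 kappa. Requiring at least a 2-fold change left 1 plasma cell gene called higher. At a mean of at least 50, with p readjusted, 3 of 5 B cell genes were called lower. Only Spib and Cd79a of the B cell genes called in the full table have such means, so a call was gained. With only peaks of -log10 q of at least 5, the mean number of peaks in the V gene regions in DKO was 0 in place of 27.5, and leaving out either library gave 13 to 42 in DKO and 1 to 10 in Wt. The peaks at heavy V genes in DKO came from replicate 1 alone, with a mean of 0 without it. No median of these comparisons changed sign under the settings tried. No paired analysis was possible because the gene values are the authors' comparison, with no value per library, and nothing used here pairs transcript IDs with genes. For the same reason the planned fits on gene sums, by edgeR, by DESeq2, with a replicate block and without each RNA library, were not run. Whether single V gene calls rest on 1 library therefore cannot be given. Depth is a limit for single V genes, as 23 of the 96 had a mean under 10 normalized counts.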

Other observations

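T cell receptor genes are rearranged in T cells by the recombinase that also joins antibody genes. The authors' deposited table called 0 of the 7 T cell receptor constant genes lower and 1 higher, beside 18.3% lower and 18.5% higher of all genes. The median of the 7 was 0.87 on the log2 scale by the authors' deposited table. The one called, Trbc1 of the beta chain, was at 1.78 (SE 0.61, adjusted p = 0.00308), and Trac of the alpha chain was at 1.09 (SE 0.69, adjusted p = 0.0938) by the authors' deposited table. Trgv2, the 1 T cell receptor V gene with a row, stood at 0.49 (SE 0.95) and a mean of 5.98 normalized counts by the authors' deposited table. Whether T cell receptor and antibody genes differed in their change was not tested.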
